A study of Mus musculus with 19 samples.

Results

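The 5-hydroxymethylcytosine (5hmC) peaks at 8 epithelial genes, Cdh1, Epcam, Krt8, Krt18, Esrp1, Cldn6, Grhl2 and Dsp, were followed through the last step of reprogramming in mouse cells. Members were all deposited peaks that overlapped 1 of 7 fixed stretches of the mm9 genome, each named here for its gene. The stretches were chr8:109115000-109205000 (Cdh1), chr17:88025000-88060000 (Epcam), chr15:101820000-101870000 (Krt8 and Krt18 together), chr4:11250000-11325000 (Esrp1), chr17:23805000-23830000 (Cldn6), chr15:37150000-37305000 (Grhl2) and chr13:38235000-38300000 (Dsp). They held 1049 of the 1601520 peaks in the 18 lists. No mm9 gene annotation was used, so a peak is placed in a stretch and not in an exon, intron or promoter. In the GRCm38.p6 gene order, Cdh1 is followed by Tango6, Krt8 lies beside Krt78, and Cldn6 lies between Tnfrsf12a and Cldn9, so a peak near the end of a stretch may belong to a neighbour.

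Epithelial cells are held together by adherens junctions, tight junctions and desmosomes, which fibroblasts largely lack. Reprogramming of fibroblasts passes through a mesenchymal-to-epithelial transition, in which Cdh1 and Epcam are switched on, and mouse embryonic stem cells keep both. 5hmC is made from 5-methylcytosine by the TET enzymes, for which ascorbic acid is a cofactor, and it is found mainly over gene bodies, enhancers and the flanks of promoters.

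The cells were pre-iPSCs, stalled intermediates derived from mouse embryonic fibroblasts, grown with ascorbic acid at 50 µg/mL and 2i, which combines the GSK3 inhibitor CHIR-99021 with the MEK inhibitor PD-0325901. Wild-type cells (WT) gave 3 libraries, A, B and C, at each of days 0, 2 and 10 (D0, D2 and D10), and the libraries titled KO1 and KO2 were made at the same days. The run names mark the KO lines as CRISPR knockouts, but the labels do not name the gene removed, so the knockout was not checked. They give the same treatment to WT and KO and to every day, D0 included. V6.5 mouse embryonic stem cells (mESCs) gave 1 library at each of 0, 12 and 72 hours, and an input library had no list of its own. The labels give ascorbic acid at 50 µg/mL for the mESC libraries too, 0 hours included. A split on day 4, which falls between D2 and D10, is listed for every library. Whether replicates came from separate cultures is not stated in the labels, and a p-value here measures the spread among these libraries, possibly a technical one. The labelled cell types could not be checked, since no expression was measured in these files.

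RefSeq start sites of GRCm38.p6 were at hand for 5 of the 8 genes. The stretch from 250 to 21 bases before the start is shown for them because CpG dinucleotides, in capitals, are the main sites of 5-methylcytosine and 5hmC in mammalian cells. The entries lie at chr15:102004363-102004592 (minus strand) for Krt8, chr15:102027966-102028195 (plus strand) for Krt18, chr17:23679115-23679344 (plus strand) for Cldn6, chr17:87635729-87635958 (plus strand) for Epcam and chr13:38151044-38151273 (plus strand) for Dsp, in GRCm38.p6. Each is written 5′ to 3′ on the strand of its gene.
Krt8: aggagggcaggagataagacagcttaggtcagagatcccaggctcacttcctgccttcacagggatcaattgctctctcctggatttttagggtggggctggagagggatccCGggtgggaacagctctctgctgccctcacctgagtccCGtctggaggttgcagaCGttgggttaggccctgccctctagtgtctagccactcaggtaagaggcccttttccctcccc
Krt18: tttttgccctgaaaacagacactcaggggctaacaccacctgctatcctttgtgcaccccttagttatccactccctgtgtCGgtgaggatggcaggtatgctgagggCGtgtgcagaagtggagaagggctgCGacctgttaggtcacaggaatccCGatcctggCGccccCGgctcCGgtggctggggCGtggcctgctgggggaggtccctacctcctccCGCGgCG
Cldn6: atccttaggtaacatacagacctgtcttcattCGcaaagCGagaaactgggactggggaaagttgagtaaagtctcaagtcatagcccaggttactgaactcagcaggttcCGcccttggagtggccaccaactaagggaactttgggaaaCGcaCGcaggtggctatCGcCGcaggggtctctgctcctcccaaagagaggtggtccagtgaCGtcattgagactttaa
Epcam: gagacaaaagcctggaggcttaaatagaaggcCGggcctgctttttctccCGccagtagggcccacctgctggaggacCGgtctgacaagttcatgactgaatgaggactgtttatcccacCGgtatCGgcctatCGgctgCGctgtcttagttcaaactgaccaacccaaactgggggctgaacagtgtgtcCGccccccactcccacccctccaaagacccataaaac
Dsp: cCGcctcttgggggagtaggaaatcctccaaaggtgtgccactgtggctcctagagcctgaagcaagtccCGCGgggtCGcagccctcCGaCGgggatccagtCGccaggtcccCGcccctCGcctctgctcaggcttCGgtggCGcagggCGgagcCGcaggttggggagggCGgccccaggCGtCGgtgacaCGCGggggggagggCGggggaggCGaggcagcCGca
Krt8 had 3 CpGs in these 230 bases, Cldn6 and Epcam 8 each, Krt18 11 and Dsp 21. Over the 32851 promoters of the table, the median was 5, and 68.3% had at least as many as Krt8, 40.1% as many as Epcam or Cldn6, 32.5% as many as Krt18 and 12.9% as many as Dsp. The E-box CACCTG, the core site of the Snail and Zeb repressors of epithelial genes, or its reverse complement CAGGTG, which covers both strands, was present 1 time each in Krt8, Krt18, Cldn6 and Epcam and was not found in the Dsp stretch. Of all promoters 16% held it. A match is only a match of letters, and the mm9 peaks were not placed against these GRCm38 sequences.

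The deposited WT lists held 61975 to 115652 peaks (D0), 106093 to 161004 (D2) and 55134 to 86465 (D10), the KO lists 61125 to 138474, and the mESC lists 24130 to 33576. Each pre-iPSC list was shortened to its 55130 peaks of highest -log10 p, the authors' value, and the bases under them (covered bp) were summed in each stretch. Tests were made on log2(covered bp + 200) after scaling each library to the mean total, so that log2 changes understate those of sparse stretches. Absolute read depth is unknown. WT D0 C stood apart: its run name gives no input file, and its list was the shortest of the 3 at D0. In the 7 stretches together, WT A, B and C had 12846, 18225 and 12585 covered bp at D0. They had 35481, 35886 and 27884 at D2, then 11014, 16718 and 13444 at D10. Coverage in all 3 D2 libraries was therefore above that in every D0 and D10 library.

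Cdh1 encodes E-cadherin, the calcium-dependent adhesion molecule of adherens junctions. Its 90 kb stretch held more peaks than any of the other 6, with 308 over the 18 lists. Covered bp in WT A, B and C were 3203, 3487 and 3943 at D0, 14654, 13167 and 8113 at D2, then 4222, 6674 and 5291 at D10. Before scaling, D2 lay above both other days in every library. After scaling, the means were 3723 ± 1199 (SD, n = 3) at D0, 10799 ± 2553 at D2 and 7117 ± 1729 at D10. The scaled D2 and D10 groups overlapped, with 7980 in WT D2 C and 8252 in WT D10 B. D10 minus D2 was -0.59 ± 0.30 (SE, log2, exact permutation p = 0.2). The days differed (exact permutation F test over 9 libraries, p = 0.0107, smallest possible 0.00357). The D2 minus D0 difference was 1.50 ± 0.32 (SE) on the log2 scale and the groups did not overlap, with an exact two-sided permutation p of 0.1, which is the smallest that 3 against 3 libraries allow.

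The sum hides 2 opposite changes within Cdh1, shown in the map of its peaks. In the first part of the stretch, peaks were present at D0, more numerous at D2 and nearly gone at D10, except for some in the window from 109120001. The 10 kb window chr8:109130001-109140000 had 1181, 926 and 899 covered bp at D0, 2864, 2463 and 1158 at D2 and 0 in all 3 D10 libraries. It fell by 3.30 ± 0.35 (SE, log2) from D2 to D10 (limma, adjusted p = 9.08e-05). The windows from 109140001, 109150001 and 109160001 were likewise at 0 in the 3 D10 libraries, and fell by 3.55 (limma, adjusted p = 0.000324), 3.45 (0.000727) and 3.16 (0.000125). With D10 at 0 in these windows and in that from 109130001, the sizes of the falls depend on the added 200 bp. The D10 group adds no spread to their SEs, and the p-values share this limit. In the window from 109160001, coverage was 0, 365 and 0 at D0 and 2088, 2000 and 1465 at D2, a rise of 2.75 ± 0.35 (limma, adjusted p = 0.00154). The neighbouring window from 109120001 had 0, 0 and 537 covered bp at D0 and 2413, 2708 and 2446 at D2 (2.88 ± 0.75; limma, adjusted p = 0.0291). That last rise passed under 5 of 13 alternatives and was lost without WT D0 A (adjusted p = 0.0984), D0 B (0.087), D2 A (0.0836), D2 B (0.0845) or D2 C (0.0855). At D10 the window from 109120001 had 0, 240 and 852 covered bp. It fell by 2.21 ± 0.75 from D2 (limma, adjusted p = 0.0363), a call that passed under 6 of 13 alternatives. The windows from 109120001, 109130001, 109150001 and 109160001 reached the minimum mean for testing, 500 covered bp, only with D2. The p-values of these windows between WT days therefore describe. When every window with a peak was tested, the falls in the windows from 109130001, 109150001 and 109160001 passed, as did the rise in the last. The rise in the window from 109120001 did not (limma, adjusted p = 0.0547), nor did its fall (0.0999).

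In the last part of the Cdh1 stretch, 2 adjoining windows were higher at D10. The window chr8:109180001-109190000 had 0 covered bp in all D0 and D2 libraries, and 1691, 3435 and 2306 in WT D10 A, B and C. Its log2 difference from D2 to D10 was 3.99 ± 0.31. Since a whole group is at 0, the size depends on the added 200 bp and is no bound: it was 5.92 with 50 bp and 2.00 with 1000 bp. The window from 109190001 had 370, 468 and 239 covered bp at D0, 334, 0 and 0 at D2, then 1498, 1845 and 1601 at D10, higher by 3.08 ± 0.39 than D2 and by 2.07 ± 0.39 than D0. Both windows reached the minimum mean for testing, 500 covered bp, through their D10 libraries alone, so these differences describe and no p-value is given. Not all of the second window moved this way: the region chr8:109198837-109199576 had peaks in all 3 WT lists at D0, all 3 at D2 and none at D10. The longest single region that appeared after D2 was chr8:109187687-109188619, 933 bp, with the authors' fold enrichment of 6.33, 6.12 and 5.93 at its D10 peaks. The longest that disappeared was chr8:109139515-109142120, 2606 bp, with folds of 7.61, 7.32 and 6.40 at D2. The peak of highest fold in any of the 7 stretches, 15.5, lay beside it at chr8:109142414-109143349 in WT D0 A.

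**Figure D1:**
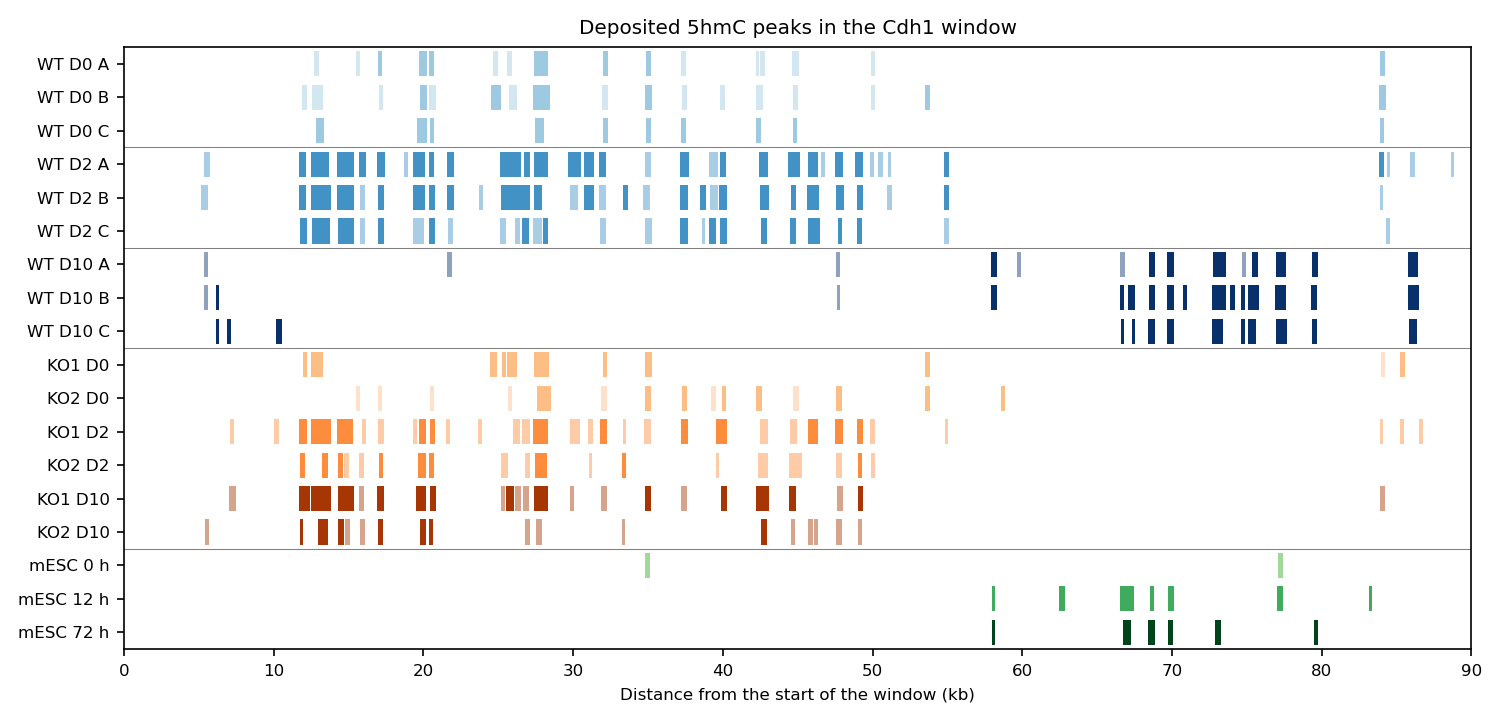
Deposited 5hmC peaks in the Cdh1 stretch, 1 row per library, against distance from the start of the stretch in kb. Solid bars are among the 55130 strongest peaks of a pre-iPSC list (mESC lists whole) and pale bars are the other deposited peaks. WT D10 libraries have few peaks in the first part, where D2 libraries have many, and a group of peaks in the last part that the KO D10 lists lack.

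In the late Cdh1 windows, KO1 and KO2 had 0 covered bp at D10 from 109180001 and from 109190001, against 1691 to 3435 and 1498 to 1845 in WT. The differences, KO minus WT, were -4.06 ± 0.43 and -3.56 ± 0.51, again given as a description, since the WT D10 libraries alone brought these windows into the test. Under all deposited peaks, KO1 had 336 bp at D10 in the window from 109190001. The KO minus WT difference in the D2 to D10 change there was -1.66 with all deposited peaks unscaled, against -3.12. In the early part, KO1 and KO2 kept 1887 and 969 covered bp at D10 in the window from 109130001, where the 3 WT libraries had 0 (KO minus WT 2.89 ± 0.52; limma, adjusted p = 0.00141). The interaction was 3.58 there (adjusted p = 0.00886) and 4.62 in the window from 109150001 (0.0214). The latter had 1937 and 380 covered bp in KO1 and KO2 at D10 and 1264 and 0 at D2, and its interaction was lost without KO1 D10 (adjusted p = 0.109) or KO2 D2 (0.0966). The windows from 109140001 and 109160001 fell in WT and did not pass between KO and WT. The first had 1634 and 0 covered bp in KO1 and KO2 at D10 (interaction 2.34; limma, adjusted p = 0.146). The other had 1567 and 273 at D2 and 352 and 0 at D10, so it was lower at D10 in both KO lines as in WT (interaction 1.82; limma, adjusted p = 0.207). Summed over the whole stretch, KO covered bp at D10 were 8542 and 2613 and overlapped those of WT (KO minus WT -0.61 ± 0.69; exact permutation p = 0.4, smallest possible 0.1). The sign of that sum turned to 0.49 with all deposited peaks unscaled and to 0.05 without KO2 D10. The KO lists differ in length from the WT lists, with 112303 and 111281 peaks at D10 against 55134 to 86465, and the part of this in the KO differences was not tested.

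Epcam encodes a cell surface adhesion molecule of epithelia and of pluripotent cells. Its covered bp were 1929, 2135 and 1478 at D0, 4978, 4138 and 5085 at D2, then 3049, 2753 and 2424 at D10. Before scaling, D2 was highest in each library, and every D10 library remained above every D0 library. After scaling, D2 and D10 overlapped, with 3601 in WT D2 B and 3703 in WT D10 A. D10 minus D2 was -0.25 ± 0.14 (SE, log2, exact permutation p = 0.3). The days differed (exact permutation F, p = 0.0107), although p was 0.0536 with all deposited peaks unscaled. D10 minus D0 was 0.88 ± 0.08 (SE, log2; exact permutation p = 0.1, the smallest possible).

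Within Epcam, adjoining windows again moved apart. The window chr17:88030001-88040000 had 1929, 2135 and 1031 covered bp at D0, 3014, 2467 and 2887 at D2, then 618, 314 and 308 at D10, and fell by 1.91 ± 0.27 from D2 to D10 (limma, adjusted p = 0.000393). The window from 88040001 had 0 covered bp in all 3 D0 libraries, 1107, 1149 and 1079 at D2, then 2343, 1795 and 1873 at D10. It rose from D0 to D2 by 2.54 ± 0.26 (limma, adjusted p = 0.000517) and was higher again at D10 by 1.21 ± 0.26. With D0 at 0, the size of the first rise depends on the added 200 bp, and D0 adds no spread to the SE. The window reached the 500 bp minimum through its D10 libraries alone, so this second difference describes and no p-value is given. With all deposited peaks unscaled it was 0.69 and did not pass (limma, adjusted p = 0.219). The first rise was lost with peaks of -log10 q of at least 5 (adjusted p = 0.0502). The region chr17:88034940-88035783 had peaks in all D0 and D2 libraries, with folds of 9.44, 8.96 and 4.77 at D0 and 10.5, 10.8 and 9.05 at D2, in no WT D10 list, and in both KO lists of every day. The region chr17:88041830-88042448 had peaks in the 3 WT D10 lists alone among the pre-iPSC lists (folds 4.87, 5.69 and 5.27) and in the mESC lists at 0 and 12 hours (3.85 and 4.10). At D10, KO1 and KO2 had 2027 and 1004 covered bp in the falling window, above every WT library. That difference did not pass (KO minus WT 1.11 ± 0.40, limma, adjusted p = 0.0544). At D2 they had 1123 and 1006, below every WT library (KO minus WT -1.23 ± 0.40, limma, adjusted p = 0.489). The D2 to D10 change differed from WT by 2.34 ± 0.57 (limma interaction, adjusted p = 0.0187), which includes the lower KO values at D2. It was 2.04 without KO1 D10, and 1.66 with peaks of -log10 q of at least 5 (limma, adjusted p = 0.075). In the rising window KO1 and KO2 had 1141 and 1004, below the 3 WT libraries (KO minus WT -1.22 ± 0.39; limma, adjusted p = 0.0319), a call that was lost without WT D10 A (0.0751), B (0.0513) or C (0.0815), or KO1 D10 (0.108).

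Krt8 and Krt18 encode the keratins of simple epithelia, which pair with each other into intermediate filaments. Covered bp in their shared stretch were 1540, 3202 and 1718 at D0, 4033, 3523 and 2282 at D2, then 0, 229 and 717 at D10. All D10 libraries lay below all earlier ones (exact permutation F over days, p = 0.00714; 0.05 without WT D2 A or without D2 B). The D10 minus D2 difference was -2.64 ± 0.79 (SE, log2; exact permutation p = 0.1, the smallest possible). The window chr15:101830001-101840000 had 1540, 2198 and 365 covered bp at D0, 979, 1161 and 602 at D2 and 0 in all WT D10 libraries, and fell by 2.28 ± 0.44 from D2 (limma, adjusted p = 0.00247). With WT D10 at 0, the size of this fall depends on the added 200 bp, and WT D10 adds no spread to the SE. KO1 and KO2 had 1568 and 763 there at D10, within their own D0 to D2 range of 646 to 2164 (KO minus WT 2.63 ± 0.50; limma, adjusted p = 0.00179; interaction 2.63, adjusted p = 0.0278). The interaction was lost without WT D2 A (0.058), WT D2 B (0.0691), KO2 D2 (0.0866) or KO1 D10 (0.1). The window from 101850001 rose from 0, 624 and 464 at D0 to 2114, 1977 and 1270 at D2 (1.88 ± 0.55; limma, adjusted p = 0.0449; passed under 4 of 13 alternatives). It then fell by 2.37 ± 0.55 to 0, 229 and 132 at D10 (0.00691). The window from 101850001 reached the 500 bp minimum only with D2, and that from 101830001 only with D0. The p-values of these windows between WT days therefore describe. When every window with a peak was tested, both falls from D2 passed and the rise did not (limma, adjusted p = 0.0761). The region chr15:101855662-101856659 appeared in all D2 lists (folds 7.90, 6.95 and 6.05) and left all D10 lists, and both KO lists held it at D2 and D10.

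Cldn6 encodes a tight junction claudin of early embryonic epithelia and pluripotent cells. Its stretch had 773, 1155 and 671 covered bp at D0, 2289, 1957 and 2056 at D2, then 0, 824 and 0 at D10. Among the strongest peaks WT D10 B had coverage where A and C had none, though A had 640 bp under weaker peaks. Of the coverage in D10 B, 368 bp lay in the window from 23820001, and most of the rest lay in the window from 23800001, which had 0 at D0 and D2. D2 lay above every other WT library (exact permutation F over days, p = 0.0143). This p rose to 0.0607 without WT D0 A, 0.0643 without D0 B, 0.0679 without D0 C, 0.075 without D2 A, 0.0643 without D2 B and 0.075 without D2 C. The window chr17:23820001-23830000 had 773, 1155 and 671 covered bp at D0, 1076, 1108 and 1017 at D2, then 0, 368 and 0 at D10, and fell by 1.94 ± 0.45 from D2 (limma, adjusted p = 0.00666). It reached the 500 bp minimum only with D2, so this p-value describes. The fall also passed when every window with a peak was tested. KO1 and KO2 had 777 and 828 there at D10 (KO minus WT 1.69 ± 0.54; limma, adjusted p = 0.0331), and the difference was lost without WT D10 A (0.0957), WT D10 C (0.104), KO1 D10 (0.093) or KO2 D10 (0.109). The peak with the highest fold at Cldn6 lay at chr17:23820035-23821189 in WT D0 B, with a fold of 11.2. The region chr17:23815876-23817726 had peaks in all D2 lists (folds 7.90, 10.8 and 7.64), in both KO lists at D2 and D10 and in no WT D10 list.

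Dsp encodes desmoplakin, which anchors keratin filaments to desmosomes. Covered bp were 859, 1937 and 1005 at D0, 1861, 2819 and 2898 at D2, then 1427, 2369 and 2802 at D10. D0 and the later days overlapped in these bp, through D0 B. After scaling, D0 lay below both later days. D2 minus D0 was 0.80 ± 0.28 and D10 minus D0 was 1.08 ± 0.39 (SE, log2, exact permutation p = 0.1 for each, the smallest possible). The test over days did not pass (exact permutation F, p = 0.0714), and p was 0.0107 without WT D10 A and 0.00714 with peaks of -log10 q of at least 5. D10 minus D2 was 0.28 ± 0.41 (SE, log2), a small difference that changed sign to -0.09 with all deposited peaks unscaled. Dsp held the 1 region of all 187 with a peak in each of the 9 WT lists, chr13:38241684-38242864. Its folds were 10.5, 13.6 and 8.27 at D0, 8.48, 11 and 9.05 at D2, then 4.87, 4.38 and 5.70 at D10. It also had peaks in all 6 KO lists, from 5.57 to 10.8, and in the mESC lists at 0 and 12 hours. The window chr13:38240001-38250000, which holds it, had 859, 566 and 430 covered bp at D0, 894, 1299 and 1424 at D2, then 366, 367 and 358 at D10, and fell by 0.91 ± 0.32 from D2 (limma, adjusted p = 0.0411; passed under 4 of 13 alternatives). The window from 38250001 had 0, 650 and 0 covered bp at D0 and 967, 1077 and 733 at D2 (1.73 ± 0.50; limma, adjusted p = 0.0422; passed under 4 of 12 alternatives). Without D2, or without D10, it would have been under the 500 bp minimum, so this p-value describes. When every window with a peak was tested, the rise did not pass (limma, adjusted p = 0.0666).

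Esrp1 encodes a splicing regulator that sets epithelial exon choice. Its stretch had 1403, 995 and 1968 covered bp at D0, 2640, 4363 and 3435 at D2, then 929, 1657 and 901 at D10. D2 was the highest day in each library, but the test over days did not pass (exact permutation F, p = 0.132; 0.0321 without WT D0 C and 0.0393 with all deposited peaks unscaled). The change lay mainly in 1 window, chr4:11310001-11320000, with 288, 0 and 1266 covered bp at D0, 2381, 3586 and 3120 at D2 and 0 in all WT D10 libraries. It fell by 3.81 ± 0.66 from D2 to D10 (limma, adjusted p = 0.00146), after a rise of 2.33 ± 0.66 from D0 (0.0394; passed under 5 of 13 alternatives). With WT D10 at 0, the size of the fall depends on the added 200 bp, and WT D10 adds no spread to the SE. This window reached the 500 bp minimum only with D2, so both p-values describe. When every window with a peak was tested, the fall passed and the rise did not (limma, adjusted p = 0.0715). KO1 and KO2 had 3874 and 843 there at D10, so KO minus WT was 3.28 ± 0.70 (limma, adjusted p = 0.00389; 0.0759 without KO1 D10). The interaction of 3.54 ± 0.99 (adjusted p = 0.0343) passed under 6 of 16 alternatives, and adjusted p reached 0.162 without KO1 D10. The region chr4:11311442-11314073, 2632 bp, was the longest that disappeared from any of the 7 stretches. Its folds were 8.33, 7.60 and 7.11 in the D2 lists, and 11.5 and 8.17 in KO1 and KO2 at D10, while no WT D10 and no mESC list had a peak there.

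Grhl2 encodes a transcription factor that activates Cdh1 and other epithelial genes. Over its 155 kb, the longest stretch, covered bp were 3139, 5314 and 1802 at D0, 5026, 5919 and 4015 at D2, then 1387, 2212 and 1309 at D10. D10 lay below all D2 libraries, and D0 spanned from the D10 to the D2 range. The days differed with an exact permutation F p of 0.0429, which rose to 0.0571 without WT D0 A, 0.0821 without D2 A, 0.0857 without D2 B, 0.075 without D2 C, 0.0786 without D10 A and 0.0821 without D10 C. The window chr15:37170001-37180000 had 1167, 1250 and 0 covered bp at D0, 1737, 1546 and 1502 at D2 and 0 in all WT D10 libraries, and fell by 2.99 ± 0.64 from D2 (limma, adjusted p = 0.00448). It reached the 500 bp minimum only with D2, so this p-value describes. With WT D10 at 0, the size of the fall depends on the added 200 bp, and WT D10 adds no spread to the SE. The fall also passed when every window with a peak was tested. KO1 and KO2 differed from each other at D10 there, with 2360 and 0.

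**Figure D2:**
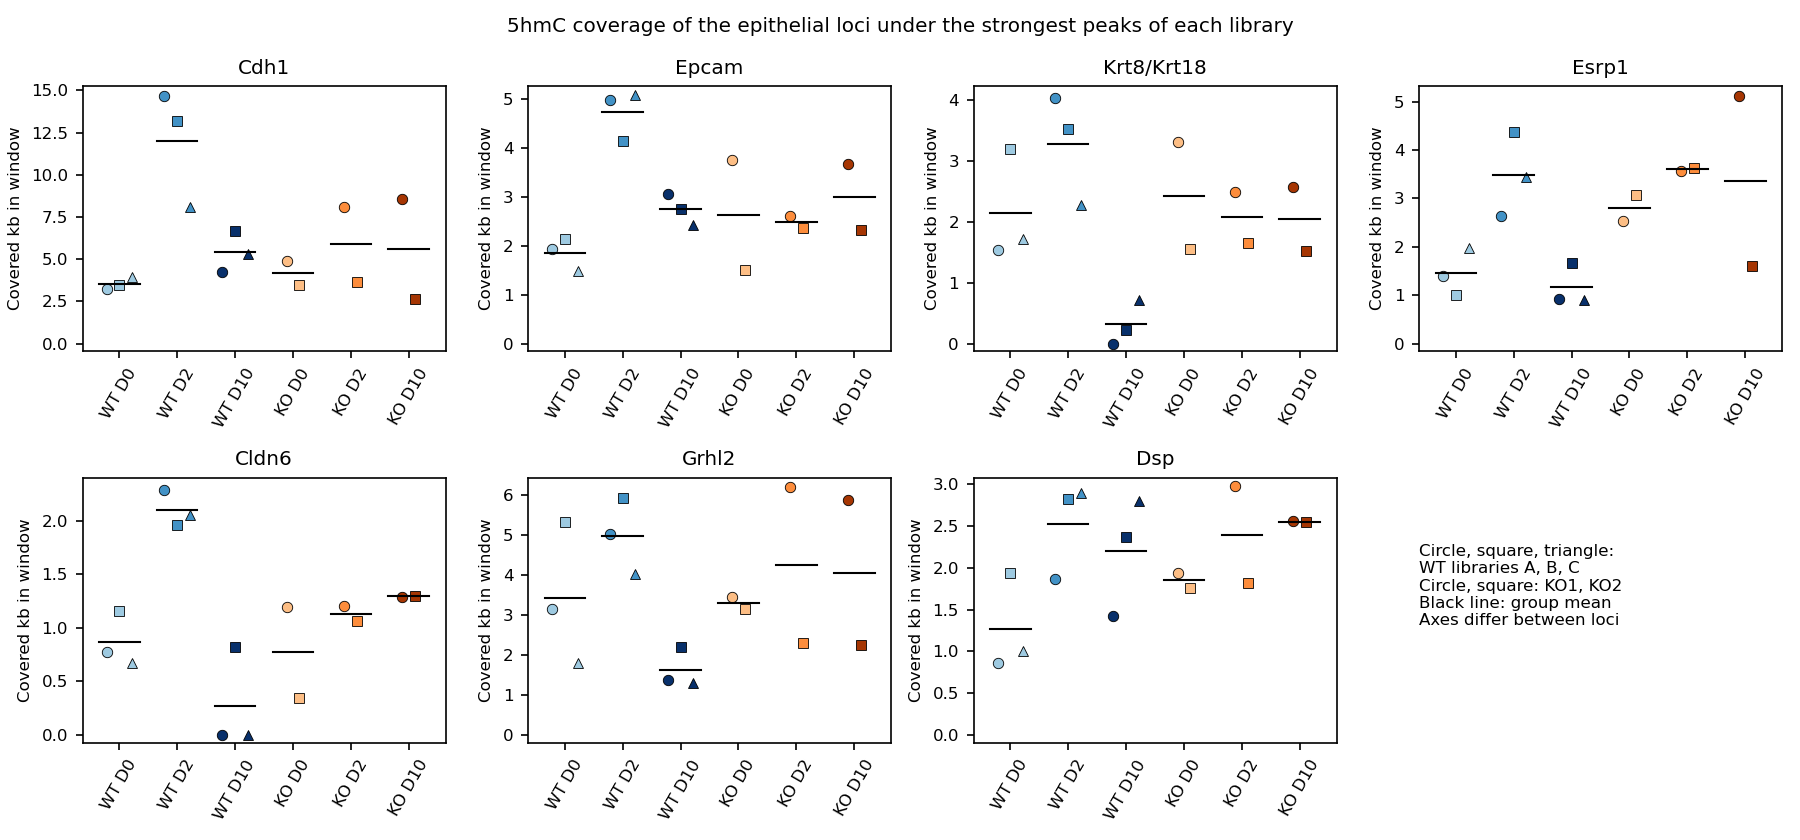
Covered kb under the 55130 strongest peaks, before scaling, in each of the 7 stretches (linear axes that differ between panels) for 9 WT and 6 KO libraries. Points are libraries and black lines are group means. D2 is the highest WT day at Cdh1, Epcam and Cldn6 in every library, and Krt8/Krt18 coverage at WT D10 is at most 717 bp.

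**Figure D3:**
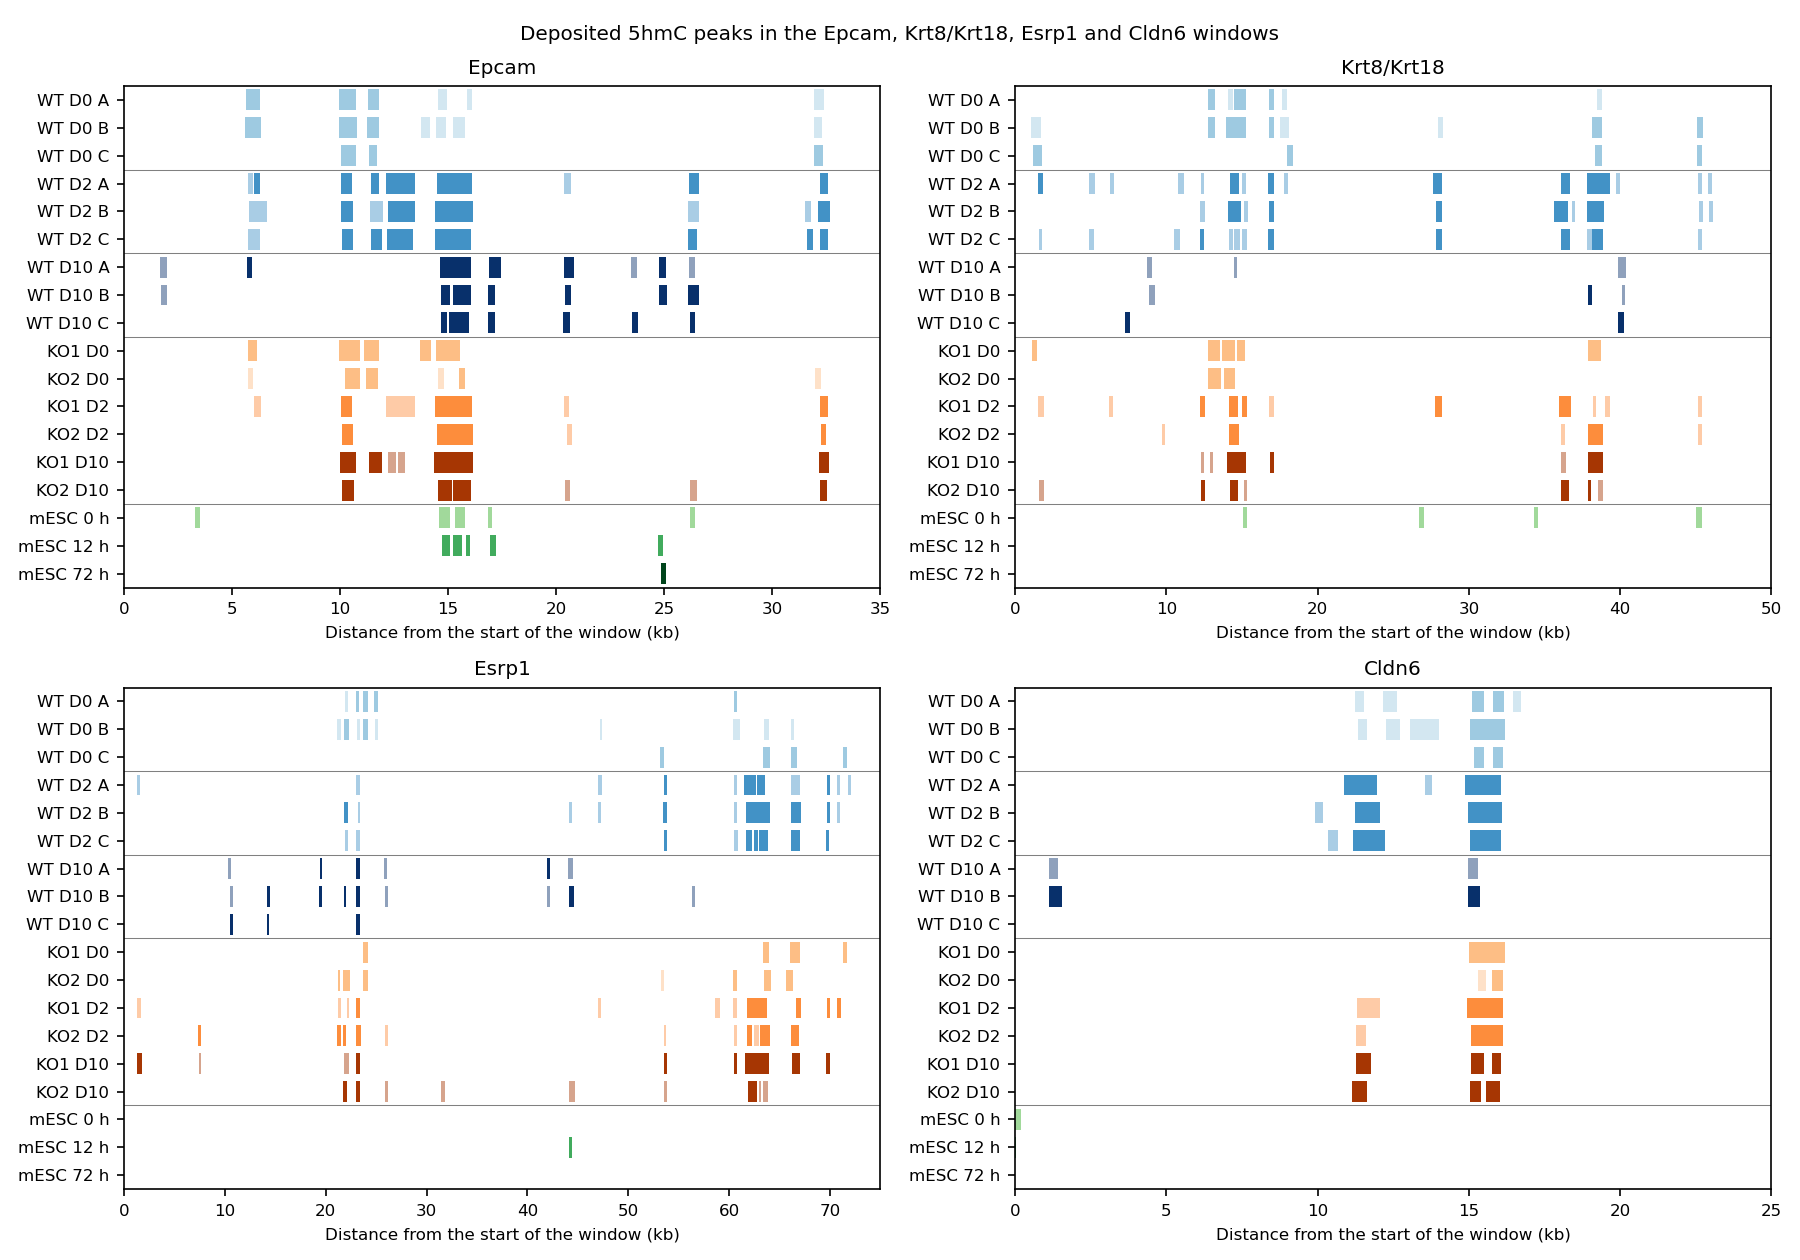
Deposited peaks in the Epcam, Krt8/Krt18, Esrp1 and Cldn6 stretches, 1 row per library, against distance from the start of each stretch in kb. Solid bars are among the strongest peaks and pale bars are the rest. Peaks present at D2 and absent from the WT D10 rows are often kept in the KO D10 rows.

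Counted over windows, 53 windows of 10 kb that overlapped the stretches held a peak, and 18 of these had a mean of at least 500 covered bp over the 9 WT libraries. The Grhl2 window from 37140001, among the 18, meets its stretch by 1 base and holds no member peak; it did not pass in any contrast between days. A window that passed only through the day on which it was high had to differ, so these counts describe and do not support. Of the 18, 15 would have been under the minimum without the libraries of a single day, 10 of them without D2 and 5 without D10. The Dsp window from 38250001 is in both counts, and the Krt8/Krt18 window from 101830001 is in neither, since it depended on D0. When every window with a peak was tested, 2 of the 7 calls of these 15 from D0 to D2 also passed, as did 11 of 12 from D2 to D10 and 6 of 9 from D0 to D10. From D0 to D2, 7 of the 18 rose (14.8% of 14776 windows in the genome rose) and 0 fell (2.98%). The 7 rises were 3 in Cdh1 and 1 each in Epcam, Krt8/Krt18, Esrp1 and Dsp. Only the Cdh1 window from 109160001 passed under every alternative that tested it, and 1 rise was called without WT D2 A and 1 without WT D2 B, 2 without D2 C, 2 without D0 A, 3 without D0 B, 4 without D10 A and 3 each without D10 B or C. From D2 to D10, 12 of 18 fell (33.2% of all) and 3 rose (13.8%). The 3 rises were the last pair of Cdh1 windows and the Epcam window from 88040001, all of which were tested through D10 alone. From D0 to D10, 7 fell (27.1%) and 4 rose (22.7%). The median log2 change of the tested windows was 0.98, -2.08 and -0.45 in these contrasts, against 0.38, -0.60 and -0.18 over all windows.

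**Figure D4:**
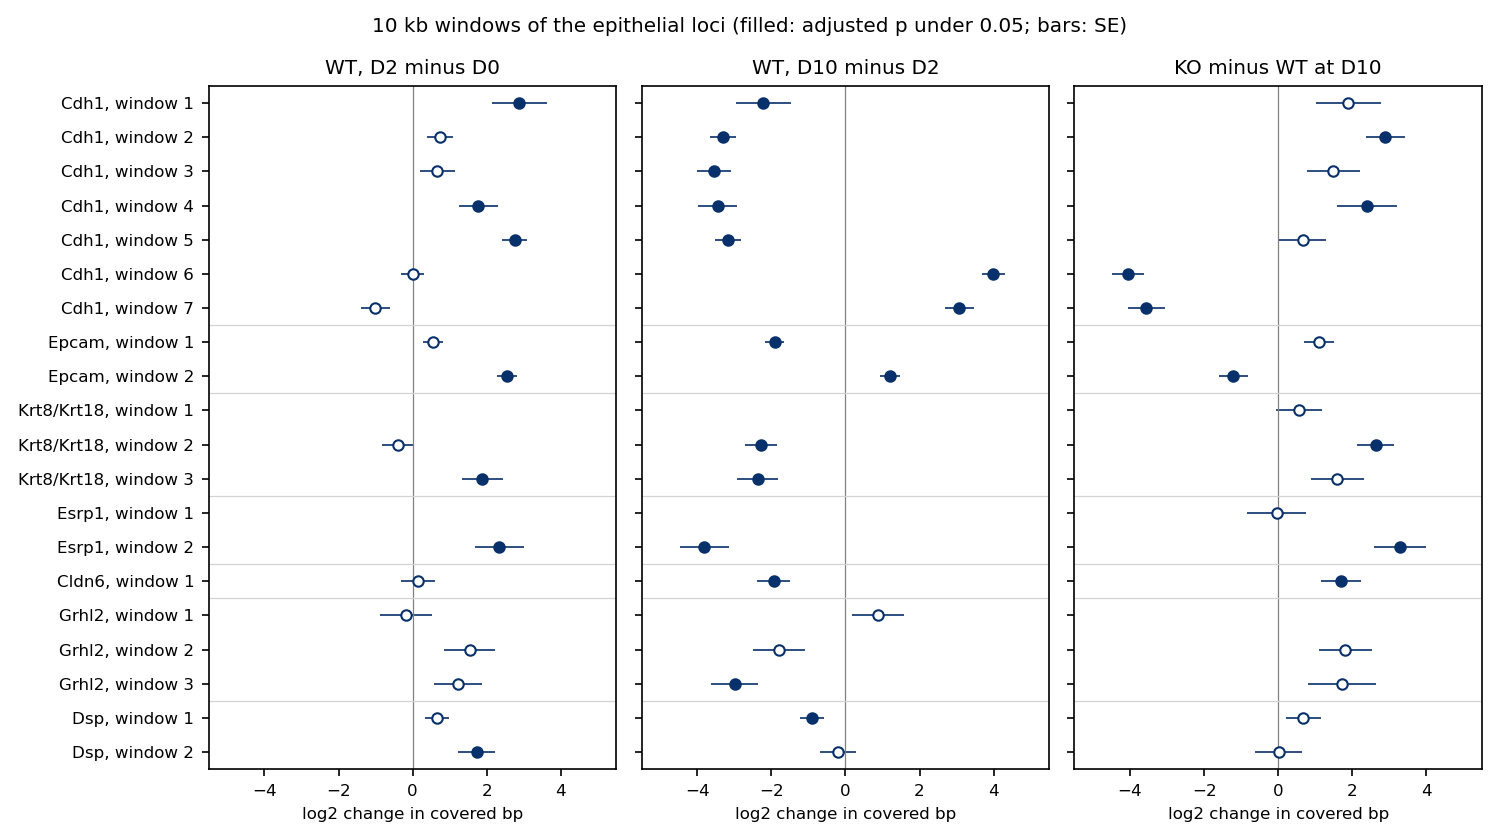
Log2 changes with SE for the tested 10 kb windows of the stretches, numbered from the start of each, in WT from D0 to D2, in WT from D2 to D10, and KO minus WT at D10. Filled points have a limma adjusted p under 0.05, and an empty place marks a window not tested in the fit of that panel. The windows 6 and 7 of Cdh1 and window 2 of Epcam rise from D2 to D10 where all other called windows fall, and the same 3 are lower in KO at D10.

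Between KO and WT, 0 of 19 tested windows passed at D0 (0.0508% of 15744 windows passed in either direction) and 0 at D2 (0.0254%) by limma, with 4 and 2 at an unadjusted p under 0.05. At D10, 5 were higher in KO (20.8% of all) and 3 lower (5.06%). The 3 lower include both late Cdh1 windows, tested through WT D10 alone, and the 19 include the Krt8/Krt18 window from 101810001, which meets its stretch by 1 base and holds no member peak. With the replicate block (KO line and WT letter), 8 were higher. Without KO1 D10, 2 were higher and 2 lower, and the lone KO library is then assumed to vary like the other groups. Without WT D10 B or C none was called lower, because both late Cdh1 windows were then under the 500 bp minimum and not tested, and without A 1 was, because the window from 109190001 was not tested. The Epcam window did not pass in these 3 fits. The change from D0 to D2 differed between KO and WT in 0 of 19 windows (0% of all), with 5 at an unadjusted p under 0.05. The change from D2 to D10 differed upward in 5 (9.49%) and downward in 2 (1.68%), the late Cdh1 windows.

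Whole-stretch sums at D2 were lower in KO at Cdh1 (8102 and 3642 covered bp in KO1 and KO2; KO minus WT -1.07 ± 0.40), Epcam (2599 and 2370; -0.87 ± 0.19) and Cldn6 (1205 and 1062; -0.78 ± 0.13), each with an exact permutation p of 0.1, the smallest that 2 against 3 libraries allow. At Cdh1 the gap before scaling was narrow, 8102 in KO1 against 8113 in WT D2 C. At D10, KO sums were 2573 and 1516 at Krt8/Krt18, 1291 and 1301 at Cldn6, 5112 and 1598 at Esrp1 and 5869 and 2253 at Grhl2, against at most 717, 824, 1657 and 2212 in WT. Differences, KO minus WT, were 2.05 ± 0.80, 1.96 ± 0.88, 0.81 ± 0.67 and 0.67 ± 0.53 (exact permutation p = 0.2, 0.2, 0.3 and 0.3), none of which passed. The D10 difference was negative at Cdh1, as given above, at Epcam and at Dsp. At Epcam it was -0.36 ± 0.16 with scaled groups that did not overlap (exact permutation p = 0.1). That sign turned to 0.20 with all deposited peaks unscaled. At Dsp it was -0.20 ± 0.38 (exact permutation p = 0.7). By the style of their run names, WT B goes with KO1, whose names both hold the word All with no meaning given, and WT C goes with KO2. In the window from 109180001 at Cdh1 the difference is present in both pairs, 3435 against 0 and 2306 against 0 at D10.

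Merging the peaks of the 9 WT lists gave 187 regions in the stretches, of 296639 in all. A region was counted as gained when all 3 later lists and no earlier list had a peak there, and as lost in the reverse case. From D0 to D2, 22 were gained (8.43% of all regions) and 2 lost (2.55%). From D2 to D10, 13 were gained (3.36%) and 46 lost (13.9%). From D0 to D10, 21 were gained (6.49%) and 19 lost (8.91%). Of the 13 gained after D2, 8 lay in Cdh1, and of the 46 lost, 20. These counts changed when a library was left out. Lost from D0 to D10 were 39 without WT D0 C, and from D0 to D2 10. Without WT D2 C, 34 were gained from D0 to D2. Without WT D10 C, gains after D2 were 22, and gains from D0 to D10 were 36.

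The regions that changed after D2 were then looked up in lists that had no part in their choice. None of the 13 gained regions had a peak in KO1 or KO2 at D10, where 2.03% and 15.8% of all 9957 such regions had one. In mESCs 2, 5 and 6 of the 13 had a peak at 0, 12 and 72 hours (5.67%, 22.9% and 33.8% of all). Of the 46 lost regions, 38 had a peak in KO1 D10 and 27 in KO2 D10 (76.7% and 53.2% of all), and 3, 0 and 0 in mESCs at 0, 12 and 72 hours (12.9%, 5.36% and 0.475%). The shares of lost regions kept in KO were close to those of all lost regions. With only 13 gained regions, 0 in KO1 and KO2 is also near the low shares of 2.03% and 15.8%.

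**Figure D5:**
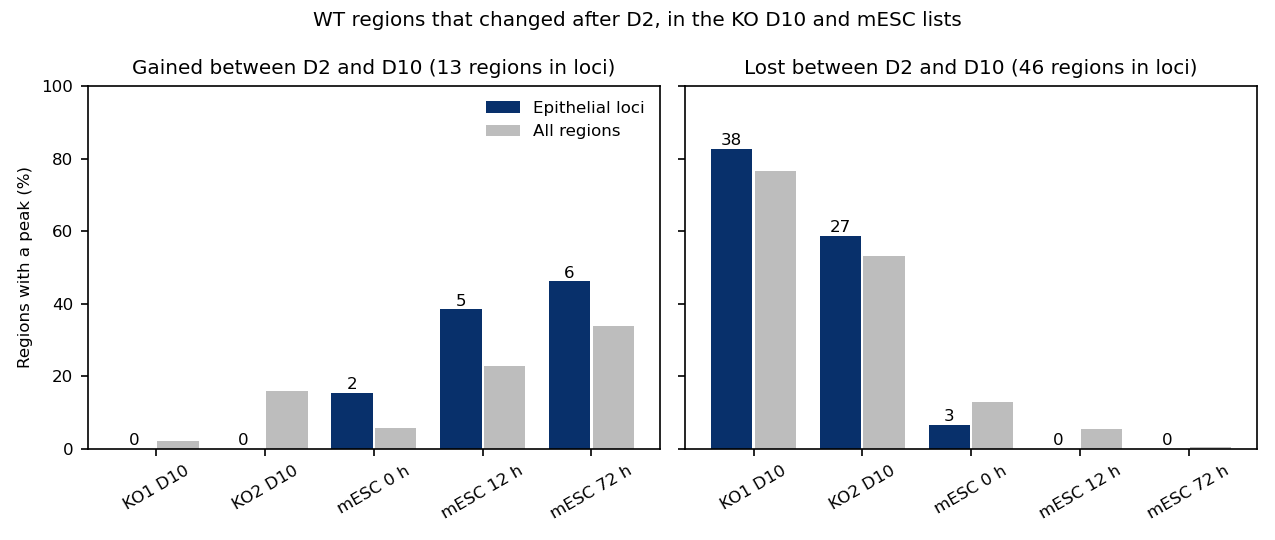
Share (%) of WT regions gained (13) or lost (46) between D2 and D10 in the stretches that have a peak in the KO D10 and mESC lists, with the number above each dark bar, beside the share over all such regions of the genome in grey. Gained regions have no peak in either KO D10 list, where 2.03% and 15.8% of all such regions have one, and up to 6 in an mESC list.

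mESC lists are 1 library per time, so their values have no replicate check, and a label states that peaks were not called for them although lists with the same layout exist. The stretches held 26, 24 and 13 mESC peaks at 0, 12 and 72 hours. Cdh1 coverage was 581, 2903 and 2152 bp, and 11 of its 15 mESC peaks lay past the start of the window from 109180001. Epcam had 1610, 1539 and 225 bp, Dsp 1714, 1655 and 684 bp, and Grhl2 2480, 1518 and 731 bp. Krt8/Krt18 had 1246 bp at 0 hours and none later, Esrp1 280 bp at 12 hours and none at the other times, and Cldn6 194, 47 and 0 bp. At 72 hours Krt8/Krt18, Esrp1 and Cldn6 were the 3 stretches with no peak.

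As a description of which loci varied together, scaled log2 coverage over the 15 pre-iPSC libraries was correlated between loci. These points share the library and the scaling, and no test is given. The closest pairs were Cdh1 with Epcam (Pearson r = 0.73), Krt8/Krt18 with Cldn6 (0.67), Cldn6 with Grhl2 (0.67) and Krt8/Krt18 with Grhl2 (0.66). Cdh1 with Krt8/Krt18 had r = 0.06 and Epcam with Krt8/Krt18 -0.14. Dsp had its highest value, 0.48, with Epcam.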

How the data were processed

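Enrichment sequencing of 5hmC was analysed in 15 pre-iPSC and 3 mESC libraries. Per the labels' protocols, DNA sonicated to 200 to 500 bp was captured through an azide-modified glucose and biotin and amplified over 14 cycles. Bowtie, SAMtools, MACS2 and the mm9 build are named, without versions, in the submitters' processing notes. Each library has a list of its own, and its run name includes a p threshold of 0.0001. For every peak the deposited lists give the enrichment over background, a linear ratio (fold), and the -log10 of p and of q. These are the authors' own values and served only to describe, rank or filter peaks.

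Groups came from sample titles. Covered bp of the 55130 strongest peaks were tested per stretch by two-sided exact permutation over samples. Windows of 10 kb on chromosomes 1 to 19 and X were tested on log2(scaled covered bp + 200) with limma 3.58.1 (R 4.3.3; trend and robust) and Benjamini-Hochberg adjustment at 0.05 over all windows, in the 9 WT libraries, or in all 15 for KO contrasts. The fit was tested on simulated data. Peaks and regions met at 1 bp of overlap. Other steps used Python 3.11.15, pandas 2.3.3 and scipy 1.17.1.

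All 8 genes are described. Windows named are those called in a WT contrast, up to the 3 largest per locus and contrast, with the KO values of the same windows; regions named are up to the 3 longest gained and lost per locus, of which a selection is printed. The window from 109190001 at Cdh1 (D10 minus D2) lies outside that rule and was chosen after its values were seen. The members and lists were chosen with earlier results of these data known. Lists of other epithelial and of mesenchymal genes were not used, since they needed an mm9 annotation. Alternatives were all deposited peaks, a -log10 q of at least 5, other pseudocounts, filters, window offsets and edges, the replicate block and each replicate left out. WT letters did not pair the samples: same-letter deviations correlated by -0.0393 to 0.0481 over windows. The KO lines were taken as the same on each day, from their titles.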

Additional observations from a re-analysis of the deposited data

Results flagged for a closer look

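In 7 windows of 10 kb, the change from D2 to D10 differed between KO and WT by the test of that difference itself (limma interaction on log2 covered bp, adjusted p under 0.05 over all windows). In 5 of them coverage fell in WT and the KO minus WT difference was positive: 3.58 and 4.62 in the Cdh1 windows from 109130001 and 109150001, 2.34 in the Epcam window from 88030001, 3.54 in the Esrp1 window from 11310001 and 2.63 in the Krt8/Krt18 window from 101830001. In the other 2, coverage rose in WT and the difference was negative, -4.06 and -3.12 in the Cdh1 windows from 109180001 and 109190001. These last 2 windows reached the 500 bp minimum through WT D10 alone, so their values describe and do not support. Of the other 5, the Cdh1 window from 109130001 passed under every alternative that tested it. No group has 4 or more libraries, so single libraries were not screened as outliers.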

How the results depend on the processing

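Of 1439 alternative values over the results, 1211 kept their direction and side of the threshold (for counts, within 1.5 times), 142 lost the threshold, 5 passed it anew, 50 moved and 31 changed sign; the cause was not tested except where stated. With all deposited peaks unscaled, the exact permutation F test over WT days gave p = 0.0536 at Epcam, 0.0393 at Esrp1 and 0.0607 at Cldn6. With a pseudocount of 50 it gave 0.05 at Cldn6, and with -log10 q of at least 5 it gave 0.00714 at Dsp. Under the replicate block it gave 0.0556 at Cldn6 and 0.0278 at Dsp, and the block changed the count of windows higher in KO at D10 to 8. In the D2 minus D0 contrast the block left 6 of 7 rises and moved no other count by over 1.5 times. Leaving out each replicate, the F test ranged from 0.00714 to 0.05 at Krt8/Krt18, 0.0321 to 0.275 at Esrp1, 0.00357 to 0.075 at Cldn6, 0.0214 to 0.0857 at Grhl2 and 0.0107 to 0.225 at Dsp.

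Differences of whole-stretch coverage that changed sign were mostly small. With all deposited peaks unscaled, KO minus WT became -0.10 (Cdh1), -0.27 (Krt8/Krt18), -0.12 (Grhl2) and -0.02 (Dsp) at D0, and 0.49 (Cdh1) and 0.20 (Epcam) at D10, and WT D10 minus D0 became -0.38 at Esrp1 and D10 minus D2 -0.09 at Dsp. With -log10 q of at least 5, KO minus WT at D0 became -0.07 (Cdh1) and -0.09 (Krt8/Krt18), D10 minus D2 at Epcam 0.36 and D10 minus D0 at Esrp1 -0.61; with a pseudocount of 1000 the last was -0.01. Trimming 5 kb from each end gave -0.02 for KO minus WT at D2 at Esrp1. Leaving out each replicate, KO minus WT at D0 ranged from -0.04 to 0.38 (Cdh1), -0.24 to 0.83 (Epcam), -0.33 to 0.52 (Krt8/Krt18), -0.92 to 0.30 (Cldn6) and -0.19 to 0.21 (Grhl2). At D2 it ranged from -0.14 to 0.28 (Esrp1), -0.84 to 0.11 (Grhl2) and -0.30 to 0.06 (Dsp), and at D10 from -1.27 to 0.05 (Cdh1) and -0.51 to 0.08 (Dsp). WT D10 minus D0 ranged from -0.36 to 0.38 at Esrp1 and D10 minus D2 from 0.00 to 0.59 at Dsp.

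Counts of windows moved as follows. Rises from D0 to D2 were 2 with -log10 q of at least 5, 2 with a pseudocount of 50, 4 in the fit of all 15 libraries and 1 to 6 with a replicate left out; falls were 1 without the filter and 0 to 1 with a replicate left out. Without the filter, which tests more windows, rises from D2 to D10 were 7, from D0 to D10 8, windows lower in KO at D10 6 and downward interactions 4. With windows shifted by 5 kb these were 1 rise from D2 to D10, 3 falls from D0 to D10, 1 lower in KO at D10 and 1 downward interaction. Higher in KO at D0 was 1 window with a pseudocount of 50. Higher in KO at D10 were 12 with all deposited peaks, 9 with -log10 q of at least 5, and 2 to 7 with a replicate left out; lower were 0 to 3. Upward interactions were 8 with all deposited peaks, 8 with -log10 q of at least 5, and 1 to 7 with a replicate left out; downward ones were 1 with all deposited peaks and 0 to 2. The minimum of 2000 mean covered bp left no window of the stretches and gave no value.

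Regions lost after D2 were 26, and over D0 to D10 7, with the strongest peaks alone. With -log10 q of at least 5, 1 was lost from D0 to D2, and gains were 7 after D2 and 12 over D0 to D10. Leaving out each replicate, gains ranged from 23 to 34 (D0 to D2), 13 to 22 (D2 to D10) and 21 to 36 (D0 to D10), and losses from 2 to 10 (D0 to D2) and 19 to 39 (D0 to D10). mESC peaks of -log10 q of at least 5 were 16, 8 and 6 at 0, 12 and 72 hours. Absolute depth is unknown, and a base without a peak is one without a call in these lists, not one shown to lack 5hmC.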
